A study of Homo sapiens with 8 samples.

Results

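The genes described here are 10 receptor tyrosine kinases, EGFR, ERBB2, ERBB3, MET, AXL, IGF1R, FGFR1, FGFR2, EPHA2 and INSR, taken by name from a table of 62649 genes. Each name matched 1 row. They are receptors known to feed growth signals past an inhibited MAPK pathway, and the rule that picks their rows uses the gene name and no level. RNA was sequenced from AsPC-1 and PANC-1, established human pancreatic cancer lines that are labelled wild type. All cells were first grown for 3 days as spheroids in methylcellulose medium. They then received, for 24 h, vehicle, 10 µM roseoflavin (a riboflavin analog), 1 nM trametinib (an allosteric inhibitor of the kinases MEK1 and MEK2) or both compounds, called the combination below. There was 1 library for each line and treatment, 8 in all, so no condition had a replicate.

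A receptor tyrosine kinase is a membrane protein that acts in pairs. Mostly on binding of a ligand, the pair phosphorylates tyrosines on the receptor tails, where adaptors dock. The adaptors pass the signal to RAS, RAF, MEK and ERK and to PI3K and AKT. ERK in turn feeds back on the receptors through phosphatases, Sprouty proteins and transcription factors, and in several carcinoma models a MEK inhibitor relieves that feedback and receptor transcripts or receptor phosphorylation go up. The question for these genes was therefore which receptors each line transcribed and whether 24 h of trametinib, of roseoflavin or of both was accompanied by a change in them. RNA levels do not measure receptor protein or its phosphorylation.

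Values are in TPM, the share of a library's transcripts that belongs to a gene after scaling for gene length, so levels of different genes can be set side by side. TPM keeps no read depth, and the depth of these libraries is unknown. Transcripts encoded by the mitochondrial genome took between 41.2% and 44.1% of each AsPC-1 library and between 22.8% and 25.6% of each PANC-1 library. A level of 1 TPM was met by 15280 to 15580 genes per AsPC-1 library and by 17105 to 17201 per PANC-1 library. In bulk RNA of this kind, fewer cells that express a gene and less RNA per cell cannot be told apart. Of 10 epithelial markers 9 reached 1 TPM in every AsPC-1 library, where the markers summed to between 8154 and 9411 TPM, and 8 did so in PANC-1, with sums between 2883 and 3190 TPM. GRHL2, one of the epithelial markers, was at or near 0 in both lines. The 7 mesenchymal markers summed to between 682 and 840 TPM in AsPC-1, where CDH2 was listed at 0, and to between 3155 and 3416 TPM in PANC-1. The 6 fibroblast markers summed to between 103 and 146 TPM in AsPC-1, nearly all of it LUM, and to between 101 and 110 TPM in PANC-1, nearly all of it COL1A1. The 6 leukocyte markers summed to between 1969 and 2085 TPM in AsPC-1, mostly LYZ (median 1904 TPM), and to between 121 and 140 TPM in PANC-1. The 4 endothelial markers together stayed at or below 0.252 TPM, and PTPRC, which marks leukocytes, at or below 0.019 TPM.

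Windows upstream of the receptor genes are shown here to place them in the genome and to let their base composition be compared with their levels below. They are the 250 bases before the transcription start in RefSeq (GRCh38.p14), written 5′ to 3′ on the gene's own strand, with matches to the motifs searched in capitals. A window was at hand for 8 of the 10 genes. MET and ERBB2 represent genes with more RNA in AsPC-1, AXL and EPHA2 genes with more in PANC-1. The MET window is chr7:116671946-116672195 on the plus strand, that of ERBB2 is chr17:39687844-39688093 on the plus strand, that of AXL is chr19:41218973-41219222 on the plus strand and that of EPHA2 is chr1:16156070-16156319 on the minus strand. GENCODE 29, whose gene bounds are given with each gene below, starts ERBB2, AXL and EPHA2 inside these windows.
MET upstream window: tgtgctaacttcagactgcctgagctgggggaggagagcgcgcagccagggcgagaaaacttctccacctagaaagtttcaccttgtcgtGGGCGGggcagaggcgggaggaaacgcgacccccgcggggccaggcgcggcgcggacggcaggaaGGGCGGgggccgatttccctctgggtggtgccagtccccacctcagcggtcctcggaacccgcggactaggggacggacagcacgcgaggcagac
ERBB2 upstream window: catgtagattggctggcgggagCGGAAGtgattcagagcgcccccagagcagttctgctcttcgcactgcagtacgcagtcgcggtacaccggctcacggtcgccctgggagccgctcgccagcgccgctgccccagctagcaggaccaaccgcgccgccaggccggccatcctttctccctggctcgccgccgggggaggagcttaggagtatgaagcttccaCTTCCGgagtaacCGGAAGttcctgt
AXL upstream window: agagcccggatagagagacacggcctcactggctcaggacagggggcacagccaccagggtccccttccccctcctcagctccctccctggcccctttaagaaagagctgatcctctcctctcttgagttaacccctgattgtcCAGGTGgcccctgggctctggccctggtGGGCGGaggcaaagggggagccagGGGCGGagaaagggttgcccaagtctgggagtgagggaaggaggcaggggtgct
EPHA2 upstream window: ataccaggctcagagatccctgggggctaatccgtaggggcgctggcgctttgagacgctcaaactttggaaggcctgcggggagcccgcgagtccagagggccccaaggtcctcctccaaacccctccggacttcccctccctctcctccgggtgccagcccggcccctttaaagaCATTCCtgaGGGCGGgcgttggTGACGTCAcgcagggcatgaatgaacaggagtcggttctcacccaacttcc

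The letters searched, on both strands, were GGGCGG (bound by SP1 and KLF factors), CGGAAG (the ETS core), TGACTCA (AP-1), TGACGTCA (the cyclic AMP response element), CATTCC (TEAD), TGTTTAC (FOXO), CACCTG (an E-box bound by ZEB factors) and TATAAA (the TATA box). None of these words contains another. GGGCGG stood in 7 of the 8 receptor windows and in 42.6% of all 35116 windows of the same length. ERBB2 was the 1 window without it, and held the ETS core 3 times, a word present in 16.5% of all windows and in no other receptor window. The AXL window held GGGCGG 2 times and the E-box 1 time (17.5% of all windows). EPHA2 had 1 match each to GGGCGG, to the TEAD word (11.9%) and to the cyclic AMP response element (1.65%). AP-1 (4.2%), FOXO (2.98%) and TATA (10.7%) words were not found in these 8 windows. Guanine and cytosine made up between 63.2% of the EPHA2 window and 81.2% of the IGF1R window, against a median of 58% over all windows. AXL had 4 CpG dinucleotides and the other 7 windows between 15 and 48, with a median of 11 over all windows. A match of letters is not evidence of binding, and no chromatin measurement was at hand.

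The lines differed far more than the treatments. In AsPC-1 the transcripts of MET, ERBB3, EPHA2 and EGFR led, and in PANC-1 those of EPHA2, AXL, MET and EGFR. ERBB3, high in AsPC-1, was nearly missing from PANC-1. All 10 genes had 4 AsPC-1 values that did not overlap the 4 PANC-1 values, as had 79.2% of the 19122 genes tested, so that lack of overlap does not set the receptors apart.

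**Figure D1:**
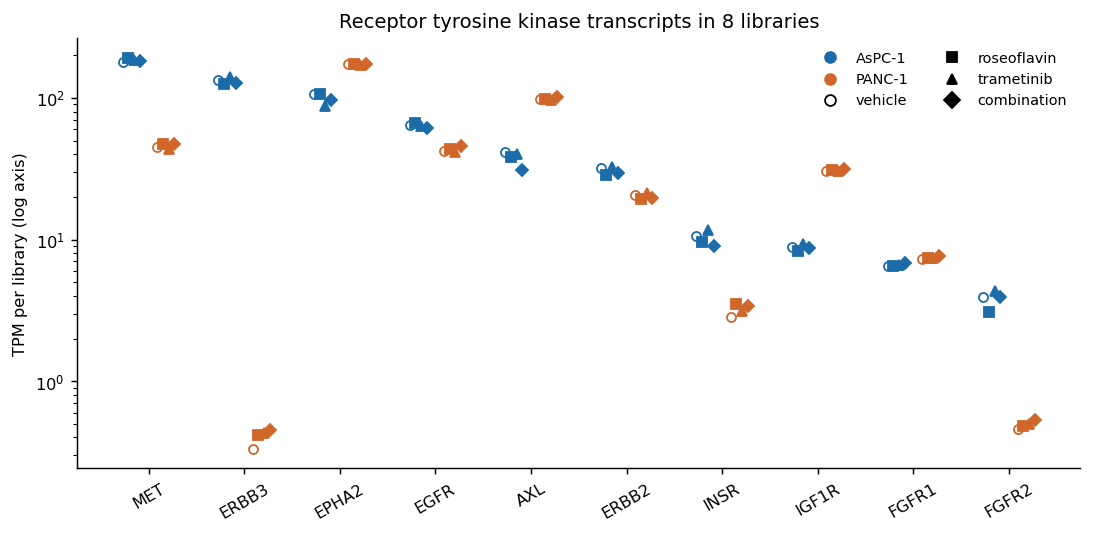
TPM of the 10 receptors in each library (log axis), with AsPC-1 in blue, PANC-1 in orange and the 4 treatments as marker shapes. The points of a line lie close together for each gene while the lines stand apart, most of all for ERBB3 (125 to 141 TPM against 0.333 to 0.455 TPM).

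The ERBB family comes first because its members act as pairs. EGFR binds EGF-like ligands, ERBB2 has no ligand of its own and is the favoured partner of the others, and ERBB3 binds neuregulins, has little kinase activity and carries docking sites for PI3K. EGFR (ENSG00000146648, chromosome 7, 55019021 to 55211628, plus strand) measured 64.7, 66.0, 63.8 and 61.8 TPM in AsPC-1 with vehicle, roseoflavin, trametinib and the combination, and 42.2, 43.6, 41.6 and 45.6 TPM in PANC-1 in the same order of treatments, which holds for every list of 4 values that follows. ERBB2 (ENSG00000141736, chromosome 17, 39687914 to 39730426, plus strand) measured 31.9, 28.5, 32.6 and 29.4 TPM in AsPC-1 and 20.7, 19.2, 21.2 and 19.6 TPM in PANC-1. Both genes were thus higher in every AsPC-1 library than in any PANC-1 library, by about 1.5-fold between the medians. ERBB3 (ENSG00000065361, chromosome 12, 56076799 to 56103505, plus strand) measured 135, 125, 141 and 128 TPM in AsPC-1 and 0.333, 0.416, 0.429 and 0.455 TPM in PANC-1. Its median was 311-fold higher in AsPC-1, a ratio whose PANC-1 value lies below 1 TPM. GENCODE 29 places a second protein-coding gene, AC034102.2, over the ERBB3 locus on the same strand, so reads there could be shared. Genes that are not protein-coding overlap ERBB2, IGF1R and FGFR1 on the same strand. On the other strand, protein-coding genes overlap ERBB2 (PGAP3 and MIEN1) and FGFR1 (LETM2). ERBB4, the remaining family member, was listed at 0 in 7 libraries and made up 0.0380% of the family's TPM in the eighth, PANC-1 with roseoflavin.

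Within a library, ratios between genes do not depend on how the library was scaled. They were chosen after the values were seen. ERBB3 made up 58.2%, 57.0%, 59.4% and 58.5% of the summed ERBB family TPM in AsPC-1 against 0.527%, 0.658%, 0.678% and 0.693% in PANC-1. EGFR made up 28.0%, 30.04%, 26.8% and 28.1% in AsPC-1 against 66.8%, 68.9%, 65.8% and 69.4% in PANC-1. AsPC-1 thus had more ERBB3 than EGFR transcript in every library, and PANC-1 had mainly EGFR followed by ERBB2. The ratio of ERBB2 to EGFR was nearly the same in both lines, 0.494, 0.431, 0.512 and 0.476 in AsPC-1 against 0.490, 0.440, 0.510 and 0.431 in PANC-1, and it was lower in all 4 libraries with roseoflavin than in the matched library without it.

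**Figure D2:**
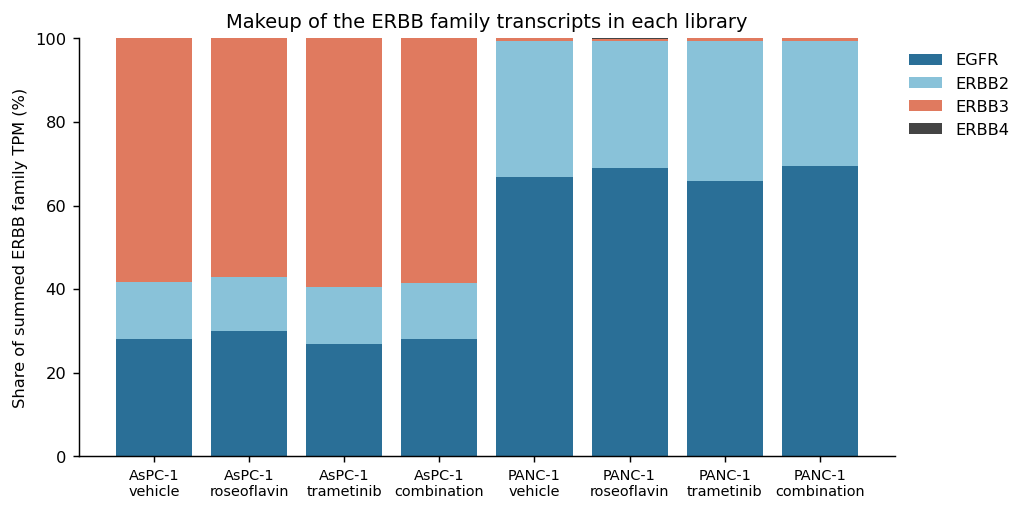
Share of the summed TPM of EGFR, ERBB2, ERBB3 and ERBB4 that each gene takes (percent, stacked bars from 0 to 100), 1 bar per library. ERBB3 takes between 57.0% and 59.4% of the AsPC-1 bars and less than 1% of the PANC-1 bars, whatever the treatment.

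MET and AXL are receptors tied to invasion and drug tolerance. MET, the receptor for hepatocyte growth factor (ENSG00000105976, chromosome 7, 116672390 to 116798386, plus strand), measured 180, 192, 185 and 183 TPM in AsPC-1 and 44.8, 47.5, 43.9 and 47.1 TPM in PANC-1. AXL, a receptor for GAS6 that is often high in mesenchymal carcinoma cells (ENSG00000167601, chromosome 19, 41219203 to 41261766, plus strand), measured 41.5, 38.2, 40.0 and 31.1 TPM in AsPC-1 and 97.4, 98.1, 96.3 and 102 TPM in PANC-1. The lines therefore ranked these receptors in opposite order, MET above AXL in all 4 AsPC-1 libraries and AXL above MET in all 4 of PANC-1. The ratio of AXL to MET was 0.230, 0.199, 0.216 and 0.170 in AsPC-1 against 2.18, 2.06, 2.19 and 2.17 in PANC-1. EPHA2, an ephrin receptor that signals both with and without ligand (ENSG00000142627, chromosome 1, 16124337 to 16156087, minus strand), measured 107, 106, 87.1 and 96.96 TPM in AsPC-1 and 173, 174, 170 and 174 TPM in PANC-1. It was the highest of the 10 in PANC-1, above 96.2% of the genes tested, where MET led in AsPC-1, above 97.3%.

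IGF1R and INSR are close relatives that bind insulin-like growth factors and insulin and can pair with each other. IGF1R (ENSG00000140443, chromosome 15, 98648539 to 98964530, plus strand) measured 8.80, 8.23, 9.25 and 8.66 TPM in AsPC-1 and 30.7, 30.8, 30.5 and 31.7 TPM in PANC-1. INSR (ENSG00000171105, chromosome 19, 7112255 to 7294034, minus strand) went the other way, with 10.7, 9.53, 11.6 and 9.06 TPM in AsPC-1 and 2.85, 3.49, 3.11 and 3.40 TPM in PANC-1. The ratio of IGF1R to INSR was 0.826, 0.863, 0.794 and 0.956 in AsPC-1 against 10.8, 8.81, 9.80 and 9.30 in PANC-1. PANC-1 thus had mostly IGF1R of this pair, and AsPC-1 had the pair at similar levels.

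FGFR1 and FGFR2 are fibroblast growth factor receptors, of which particular FGFR2 isoforms are typical of epithelia. FGFR1 (ENSG00000077782, chromosome 8, 38400215 to 38468834, minus strand) measured 6.47, 6.55, 6.56 and 6.80 TPM in AsPC-1 and 7.25, 7.45, 7.36 and 7.62 TPM in PANC-1. FGFR2 (ENSG00000066468, chromosome 10, 121478334 to 121598458, minus strand) measured 3.96, 3.07, 4.36 and 3.93 TPM in AsPC-1 and 0.462, 0.479, 0.496 and 0.535 TPM in PANC-1. FGFR1 hardly separated the lines while FGFR2 was below 1 TPM in every PANC-1 library. The table is by gene, so isoforms of these receptors were not resolved.

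Ordered by median, the AsPC-1 levels ran MET, ERBB3, EPHA2, EGFR, AXL, ERBB2, INSR, IGF1R, FGFR1 and FGFR2. The 4 values of AXL overlapped those of ERBB2 and the values of INSR overlapped those of IGF1R, so these neighbours could not be ordered. In PANC-1 the order was EPHA2, AXL, MET, EGFR, IGF1R, ERBB2, FGFR1, INSR, FGFR2 and ERBB3, and MET and EGFR were the neighbours that overlapped. The 10 genes summed to 590, 583, 582 and 559 TPM in AsPC-1 and to 420, 425, 415 and 432 TPM in PANC-1.

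The line difference was tested with limma on log2(TPM + 1), with roseoflavin and trametinib as additive terms and Benjamini-Hochberg adjustment over the 19122 genes for which 2 libraries or more held 1 TPM or above. The spread in this fit is that between libraries of different treatment, not between repeated cultures. At an adjusted p of 0.05, 4 receptors were higher in PANC-1, where 62.3% of all tested genes were called higher, and 6 were lower, where 21.5% were. Together 83.8% of genes were called, so a call by itself says little about a receptor. Differences are log2 values, PANC-1 minus AsPC-1, ± the standard error of the fit. The lower receptors in PANC-1 were ERBB3 at -6.56 ± 0.0509 (adjusted p = 1.37e-09, limma), MET at -1.99 ± 0.0342 (adjusted p = 2.00e-08), FGFR2 at -1.69 ± 0.0852 (adjusted p = 2.42e-06) and INSR at -1.41 ± 0.0948 (adjusted p = 1.02e-05). ERBB2 was -0.58 ± 0.0332 and EGFR -0.56 ± 0.0411, and both passed the test. IGF1R was higher in PANC-1 by 1.71 ± 0.0423 (adjusted p = 9.22e-08, limma), AXL by 1.37 ± 0.0814 (adjusted p = 5.40e-06), EPHA2 by 0.80 ± 0.0541 and FGFR1 by 0.15 ± 0.0401 (adjusted p = 0.0117).

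The median of all tested genes was itself 0.55 higher in PANC-1 on this scale. Against that shift, FGFR1 lay below the typical gene. With quantile normalization its difference was -0.40, and with TPM rescaled without mitochondrially encoded genes -0.20, so its direction flips with the scaling and is not a result. The other 9 receptors kept their direction under both. Over all genes the call split was 11917 higher and 4110 lower with TPM as deposited, 7963 and 7177 with quantile normalization, and 9814 and 6298 with the rescaled TPM. The median of the 10 receptors was -0.57, below that of all genes.

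**Figure D3:**
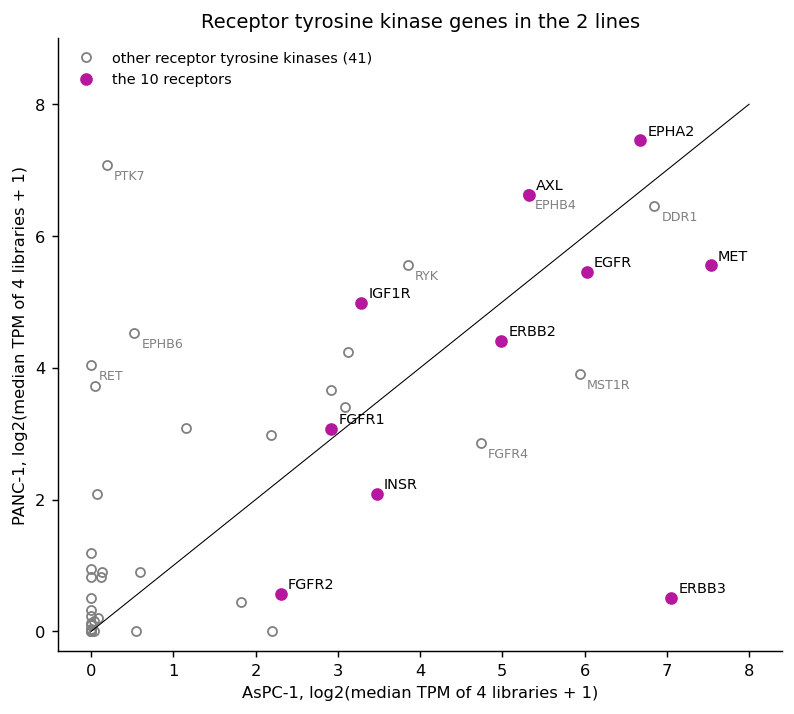
Median of the 4 libraries of each line, as log2(TPM + 1), for the 10 receptors (filled) and 41 other receptor tyrosine kinases (open), with AsPC-1 on the horizontal and PANC-1 on the vertical axis and the line of equal level. ERBB3 and MET lie far to the AsPC-1 side, AXL, IGF1R and EPHA2 to the PANC-1 side, and PTK7 near the top left.

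Of 41 other receptor tyrosine kinases 18 had enough RNA to be tested, of which 13 were higher and 5 lower in PANC-1, with a median of 1.16. PTK7, a kinase-dead receptor of planar polarity, was higher by 6.87, and RET, the receptor of the GDNF family, by 4.04 while listed at 0 in all AsPC-1 libraries. EPHA1 was at -2.20 and MST1R, the MET relative that binds MSP, at -2.06. All 4 passed the limma test. DDR1, a collagen receptor chosen for mention after its values were seen, was high in both lines, with 121, 115, 113 and 112 TPM in AsPC-1 and 87.0, 85.9, 84.7 and 94.3 TPM in PANC-1.

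Ligands of the 10 receptors differed by line too. Of 30 listed, 18 were tested, 5 were higher and 9 lower in PANC-1. For EGFR, AREG led in AsPC-1 with a median of 49.3 TPM, against 1.29 TPM in PANC-1, where HBEGF led with 8.37 TPM. AREG passed the limma test at -4.44. The ERBB3 ligands NRG1 and NRG2, with medians of 3.63 and 9.75 TPM in PANC-1, had medians of 0 in AsPC-1, so the line with ERBB3 RNA had next to none of these neuregulins. HGF, the MET ligand, was listed at 0 in AsPC-1 and had a median of 0.918 TPM in PANC-1. IGF2, a ligand of IGF1R, was higher in PANC-1 by 5.10, with a median of 34.5 TPM against 0.0215 TPM, in the line that also had the more IGF1R. FGF19, which acts mainly through FGFR4, led the FGF ligands in AsPC-1 with a median of 95.5 TPM and was lower in PANC-1 at -6.06. NRG2 was higher there by 3.36. FGF2 led them in PANC-1 with 5.32 TPM. Of GAS6 and PROS1, which bind AXL and its relatives, PROS1 was the higher in both lines, with a median of 12.5 TPM in AsPC-1 against 18.01 TPM in PANC-1. Of the EPHA2 ligands, EFNA1 had the highest median in AsPC-1, 56.8 TPM, and EFNA3 in PANC-1, 22.7 TPM. The values of EFNA1 overlapped those of EFNA2 in AsPC-1, and EFNA1, EFNA3 and EFNA4 overlapped in PANC-1. These ligands could therefore not be ordered.

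Among adaptors and proximal signalling genes 17 of 22 tested were higher and 5 lower in PANC-1. SHC1, which links receptors to GRB2, was higher by 2.37 and PLCG1, phospholipase C gamma, by 2.06. GRB7, an adaptor of ERBB receptors, was at -4.29 and GRB14, which binds the insulin receptor, at -3.59. Of the negative regulators and shedding enzymes 17 of 23 were higher and 3 lower. ERRFI1, an inhibitor of EGFR and its relatives, stood out with 52.6, 48.5, 52.3 and 44.4 TPM in AsPC-1 and 658, 773, 615 and 750 TPM in PANC-1, a difference of 3.79 ± 0.0922. SOCS3 was higher by 3.22, while CBLC, an epithelial ubiquitin ligase of receptors, was at -4.12 and ADAM9 at -1.18. Of 18 transcription factors and co-factors known to act on receptor genes, and their reporters, 14 were higher and 3 lower. TFAP2C was higher by 4.16 and WWTR1 (TAZ) by 3.91, and FOXO1 and FOXO4 were at -1.85 and -1.68. Of 16 MAPK output genes 8 were higher and 8 lower, with the phosphatase DUSP5 at 3.46 and the ETS factor ETV5 at 2.06 and the phosphatases DUSP4 and DUSP6 at -5.42 and -3.32. Each gene given here with a line difference passed the limma test. Epithelial markers moved with the line, 9 of 9 tested lower in PANC-1 with a median of -2.48, most of all EPCAM (-6.33) and ELF3 (-4.90). Of 4 mesenchymal markers 3 were higher, led by CDH2 (2.71) and VIM (2.14), and SNAI2 was lower (-3.59). COL1A1 (6.59), COL3A1 (1.48) and CD68 (0.23) were higher and LUM (-6.96), LYZ (-10.75) and CD14 (-1.27) lower among fibroblast and leukocyte markers. Their part in the receptor differences was not tested.

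With trametinib the fitted receptor changes were small, and none passed. The test over all 8 libraries (4 with against 4 without, limma with line and roseoflavin as terms) called 0 of the 10 receptors, and 0% of all genes, at an adjusted p of 0.05. At an unadjusted p under 0.05 it had 0 receptors against 938 genes, 4.91% of those tested. The fitted changes ran from -0.11 for EPHA2 to 0.12 for FGFR2 on the log2 scale, with a median of 0.029 over the 10 and 0.018 over all genes. Both ends moved with single libraries, EPHA2 between -0.060 without the AsPC-1 trametinib library and -0.14 without the PANC-1 roseoflavin library, and FGFR2 between 0.051 without the AsPC-1 roseoflavin library and 0.17 without the PANC-1 trametinib library. ERBB3, a receptor often reported to rise after MEK inhibition in other carcinoma cells, changed by 0.060 ± 0.0509, with a 95% interval from -0.063 to 0.18 (adjusted p = 0.874, limma), and it lay between 0.028 without the PANC-1 vehicle library and 0.089 without the AsPC-1 combination library. ERBB3 and FGFR2 lay below 1 TPM in every PANC-1 library. Their fitted changes average those low values with the higher ones of AsPC-1. For EGFR the change was -0.018 (interval -0.12 to 0.082), for ERBB2 0.035 (-0.045 to 0.12), for MET -0.017 (-0.099 to 0.066) and for IGF1R 0.041 (-0.061 to 0.14). The widest intervals were those of INSR (-0.20 to 0.26), FGFR2 (-0.086 to 0.33) and AXL (-0.27 to 0.12). These intervals bound the mean change over both lines and treatments, and a p above the threshold does not show that a receptor stayed the same.

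The design gives 4 matched pairs for trametinib, with and without roseoflavin in each line. In TPM as deposited, ERBB2, ERBB3, FGFR1 and FGFR2 were higher with trametinib in all 4 pairs. These were 4 of 10 receptors, where 9.66% of all genes were higher in all 4. The differences were small. For ERBB2 they ran from 0.029 to 0.044, for FGFR1 from 0.017 to 0.048, for ERBB3 from 0.034 to 0.10 and for FGFR2 from 0.033 to 0.28. In PANC-1, ERBB3 and FGFR2 were below 1 TPM. In AsPC-1 on top of roseoflavin, ERBB2 rose by 0.044, ERBB3 by 0.034 and FGFR1 by 0.048. The median of all genes rose there by 0.039, and by 0.057 among genes averaging at least 10 TPM. Mitochondrial transcripts took 44.1% of the library with roseoflavin and 41.3% of the combination library. Relative to the transcripts that are not mitochondrial, ERBB2, ERBB3 and FGFR1 were lower with trametinib in AsPC-1 on top of roseoflavin. Their place among the 4 receptors therefore depends on the scaling, and differences of this size can do so in general. No receptor was lower in all 4 pairs, against 4.54% of genes. EPHA2 was lower in 3 of 4, and in PANC-1 with roseoflavin its values were nearly equal. Its largest difference was in AsPC-1 without roseoflavin, from 107 to 87.1 TPM, 1.22-fold lower in TPM + 1. On top of roseoflavin in AsPC-1 it was -0.13. The fitted EPHA2 change of -0.11 ± 0.0541 had an unadjusted p of 0.0835 and an adjusted p of 0.861 (limma).

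**Figure D4:**
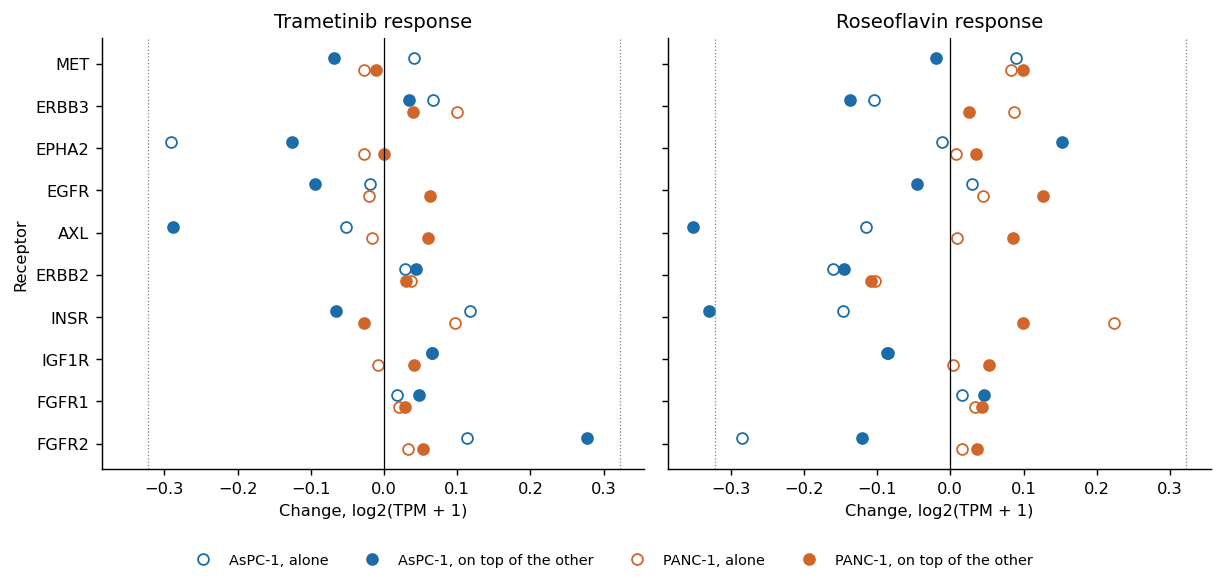
Change in log2(TPM + 1) of each receptor with trametinib (left) and roseoflavin (right) in the matched library pairs, with open points for the compound alone against vehicle, filled points for the compound on top of the other, AsPC-1 in blue and PANC-1 in orange, and dotted lines at 0.32 either way. All PANC-1 points lie inside the dotted lines, and AXL and INSR in AsPC-1 lie outside them for roseoflavin on top of trametinib.

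Single libraries of a line were also compared, with no test, by counting receptors that moved by at least 0.32 either way in log2(TPM + 1). In AsPC-1, 0 of 10 did so with roseoflavin (14.8% of genes), 0 with trametinib (15.6%), 1 with the combination (16%), 0 with trametinib on top of roseoflavin (13.5%) and 2 with roseoflavin on top of trametinib (14.1%). In PANC-1 the count was 0 in each of the same comparisons, in which 12.7%, 12.2%, 14.7%, 12.4% and 15.4% of genes moved that far. Among genes averaging at least 10 TPM, the shares ran from 3.41% to 9.07%. The 1 added to TPM damps changes at low levels, so the count says little about ERBB3 and FGFR2 in PANC-1. There ERBB3 measured 0.333 TPM with vehicle, 0.429 TPM with trametinib and 0.455 TPM with the combination, and did not count. Nor did FGFR2 in AsPC-1, with 3.96 TPM with vehicle and 3.07 TPM with roseoflavin. The 1 receptor in the AsPC-1 combination was AXL, from 41.5 TPM with vehicle to 31.1 TPM, 1.32-fold lower in TPM + 1. AXL and INSR were the 2 that were lower with roseoflavin on top of trametinib, by 1.28-fold and 1.26-fold on the same scale. The combination library held the lowest of the 4 AXL values of AsPC-1, while in PANC-1 the same treatment gave the highest AXL value, 102 TPM.

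Whether the lines responded differently to trametinib was tested as an interaction (PANC-1 change minus AsPC-1 change). In limma it called 0 receptors and 0% of genes after Benjamini-Hochberg adjustment, and had 0 receptors against 7.28% of genes at an unadjusted p under 0.05. The closest was EPHA2, with a difference of 0.19 ± 0.0796 (unadjusted p = 0.0569, adjusted p = 0.673), and 0.12 without the AsPC-1 trametinib library. For AXL it was 0.19 ± 0.157 (adjusted p = 0.837, limma), and it ran from 0.019 without the AsPC-1 combination library to 0.36 without the AsPC-1 trametinib library.

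The MAPK pathway's own output genes serve as the readout of MEK inhibition in the same libraries. DUSP6, an ERK phosphatase that ERK induces, measured 193, 176, 155 and 136 TPM in AsPC-1 and 18.6, 17.5, 13.98 and 12.5 TPM in PANC-1. Both libraries with trametinib were below both without it in each line. The fitted change was -0.38 ± 0.0360, with an adjusted p of 0.564 (limma), so that DUSP6 too did not pass over all genes. Of 16 MAPK output genes tested, 16 had a fitted change below 0, with a median of -0.14, and 6 had an unadjusted p under 0.05, among them EGR1 at -0.33 and SPRY4 at -0.28. None passed after adjustment. The list's direction was known from earlier results of these data. Across the receptors 6 fitted changes were above 0 and 4 below, near the share of all genes with a fitted change above 0, 59%.

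**Figure D5:**
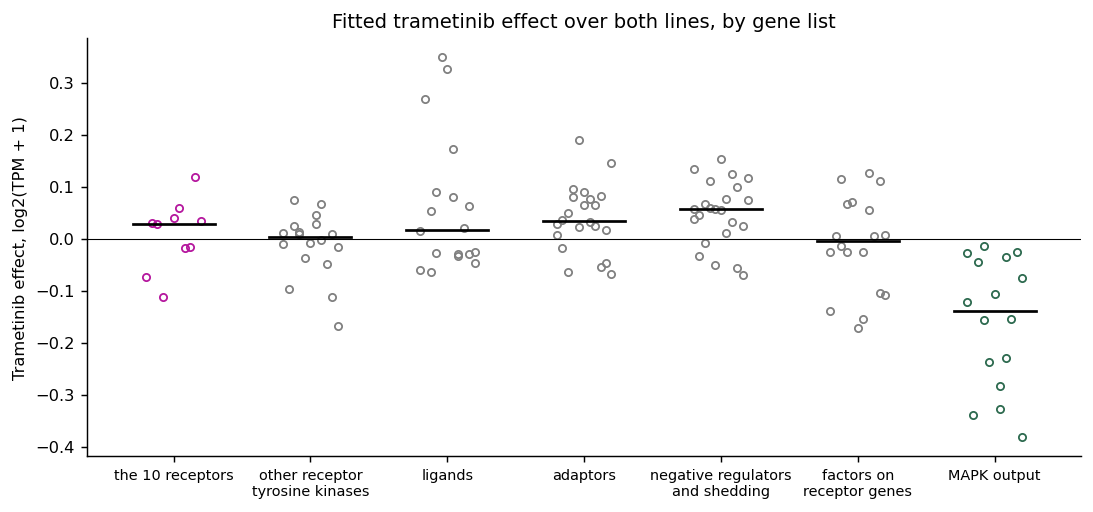
Fitted trametinib change of each tested gene over both lines, in log2(TPM + 1), by gene list, with the list median as a bar. The 10 receptors lie between -0.11 and 0.12 around a median of 0.029, and the 16 MAPK output genes all lie below 0 around a median of -0.14.

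None of the other lists held a gene that passed for trametinib. Among 18 other receptor tyrosine kinases, 0 had an unadjusted p under 0.05, and the smallest were those of ROR1 (-0.17) and PTK7 (0.067). Of 18 ligands 3 had, all upward: FGF18, an FGFR ligand (0.33, unadjusted p = 0.0159), FGF19 (0.27, unadjusted p = 0.0161) and GAS6, the AXL ligand (0.35, unadjusted p = 0.0230), each with an adjusted p of 0.861 (limma). GAS6 measured 7.57, 6.28, 11.5 and 10.3 TPM in AsPC-1 and 10.1, 10.4, 10.6 and 11.7 TPM in PANC-1, and it was higher with trametinib in all 4 pairs, mainly in AsPC-1. FGF19 was 86.2, 88.6, 102 and 113 TPM in AsPC-1 and below 1 TPM throughout PANC-1. FGF18 lay near the filter limit of 1 TPM, between 0.608 and 1.26 TPM in AsPC-1 and between 0.518 and 1.29 TPM in PANC-1. PIK3R1, a regulatory subunit of PI3K, was at 0.15 (unadjusted p = 0.0453) and SOS2 at 0.19 among 22 adaptors. Of 23 negative regulators, 18 had a fitted change above 0, and the smallest p-values were those of PTPRK, a receptor phosphatase (0.12, unadjusted p = 0.0294), and SPRED1 (0.15, unadjusted p = 0.0450). CCN1, a reporter of YAP and TAZ, was at -0.14 and ZEB1 at -0.10 among the factors. All 9 epithelial markers tested had a fitted trametinib change above 0, with a median of 0.11, and 1 of them, CDH1, had an unadjusted p under 0.05 (0.25). Their part in the receptor changes was not tested.

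Roseoflavin, too, was accompanied by no receptor change that passed. Limma called 0 of 10 receptors and 0% of genes after Benjamini-Hochberg adjustment. At an unadjusted p under 0.05 it had 1 receptor, ERBB2, against 1358 genes, 7.1% of those tested. ERBB2 was lower with roseoflavin in all 4 pairs, where 10.2% of genes were, by 0.16 and 0.15 in AsPC-1 and by 0.10 and 0.11 in PANC-1, each the size of a difference on the log2 scale. In each line both values with roseoflavin lay below both values without it. The fitted change was -0.13 ± 0.0332, with a 95% interval from -0.21 to -0.049, an unadjusted p of 0.00729 and an adjusted p of 0.641 (limma). Leaving out each library in turn kept it between -0.14 and -0.12. FGFR1 was higher in all 4 pairs (4.91% of genes), by at most 0.046. The other receptors went in both directions over the 4 pairs, with fitted changes between -0.093 (AXL) and 0.063 (MET). The median over the 10 was -0.030, and -0.017 over all genes.

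In TPM as deposited, 5 receptors were lower with roseoflavin in both AsPC-1 pairs and higher in both PANC-1 pairs. They were ERBB3, AXL, IGF1R, FGFR2 and INSR, and 11.5% of all genes tested did the same. The pattern was noticed in these data and has no test over the 5. With roseoflavin alone in PANC-1 the rises were 0.0032 for IGF1R, 0.0090 for AXL, 0.017 for FGFR2, 0.087 for ERBB3 and 0.22 for INSR. Mitochondrial transcripts took 25.6% of the PANC-1 vehicle library and 23.7% of that with roseoflavin. The direction of the smallest of these rises therefore depends on the scaling of TPM. Relative to the transcripts that are not mitochondrial, IGF1R and AXL were lower with roseoflavin alone in PANC-1. They did not show the pattern on that scale, while ERBB3, FGFR2 and INSR did. INSR showed the pattern most, with 10.7 against 9.53 TPM and 11.6 against 9.06 TPM in AsPC-1, and 2.85 against 3.49 TPM and 3.11 against 3.40 TPM in PANC-1, without and with roseoflavin. The interaction of line and roseoflavin called 0 receptors against 0.0261% of genes (5 genes, and 0 with any 1 library left out). At an unadjusted p under 0.05 it had 1 receptor, INSR, against 9.97% of genes. The INSR difference was 0.40 ± 0.107 (unadjusted p = 0.0127, adjusted p = 0.390, limma). The median change of all genes in AsPC-1 was -0.046 with roseoflavin alone and -0.0048 with roseoflavin on top of trametinib, and 0 in both PANC-1 pairs.

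For roseoflavin no list held a gene that passed either. The smallest p-values among other receptors were those of RET (-0.15) and MST1R (-0.13), among ligands FGF19 (0.24) and FGF18 (-0.22), among adaptors SHC1 (0.085) and PLCG1 (-0.080), and among negative regulators TIMP1 (0.091) and CBLC (0.25). In PANC-1 FGF19 measured 0.122 and 0.473 TPM without roseoflavin and 0.626 and 0.732 TPM with it, all below 1 TPM. In AsPC-1 it went from 86.2 to 88.6 TPM and from 102 to 113 TPM. FGF18 was at most 1.29 TPM in any library. Of the factors that act on receptor genes, FOSL1, an AP-1 subunit, was at 0.28 (unadjusted p = 0.0201) and TFAP2A, an AP-2 factor, at -0.12 (unadjusted p = 0.0244). In the MAPK output list FOS was at -0.51 (unadjusted p = 4.02e-04, adjusted p = 0.551, limma) and EGR1 at -0.26, and 8 of 16 genes had a fitted change on either side of 0. Of the 16 genes 5 had an unadjusted p under 0.05 in limma, where 7.1% of all genes did. Besides FOS and EGR1 these were DUSP6 at -0.14, FOSL1 at 0.28 and DUSP5 at 0.24. DUSP6 was thus lower with roseoflavin as well as with trametinib.

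The combination was compared with vehicle over both lines, with the libraries that also enter the single-compound comparisons. Limma called 0 receptors and 0% of genes after Benjamini-Hochberg adjustment, and had 0 receptors against 5.32% of genes at an unadjusted p under 0.05. The fitted changes ran from -0.17 to 0.063, with a median of 0.017 for the receptors and 0.0046 for all genes. The interaction of the compounds, which asks whether the combination departs from the sum of the single changes, likewise called 0 receptors and 0% of genes, with 0 receptors against 2.8% of genes at an unadjusted p under 0.05. Receptor estimates ran from -0.15 to 0.096.

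For each receptor the gene that followed it most closely over the 8 libraries was sought among 8630 named genes averaging at least 10 TPM, after the mean of each line was taken out. The best Pearson r lay between 0.970 and 0.995, for EGFR with VIPAS39, ERBB2 with RSRP1, ERBB3 with UBE2B, MET with DNAL4, AXL with ADPRS, IGF1R with ZKSCAN1, FGFR1 with DDX19B, FGFR2 with CDKN1B, EPHA2 with IMPDH1 and INSR with PRKAB2. These are the highest of many values over 8 points that share lines, treatments and TPM scaling, and are given as a description. Within the receptors the closest pairs were IGF1R with FGFR2 (0.930) and ERBB3 with INSR (0.889).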

How the data were processed

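Poly(A) RNA from 8 spheroid cultures was sequenced with a stranded kit, per the labels' protocols. The authors deposited TPM per gene, per the file headers. STAR 2.7.3a, HTSeq 2.0.2 and hg38 stand in the submitters' processing notes, and how they were used, the annotation and the strand setting are not given in the sources used here. Gene coordinates are from GENCODE 29 (GRCh38). Blank rows were dropped, and log2(TPM + 1) was fitted with limma 3.58.1 (lmFit and eBayes with trend, R 4.3.3) over genes with at least 1 TPM in 2 libraries, with 4 residual degrees of freedom in the additive model and two-sided tests. The libraries of the other line and compound stood in for replicates, so p-values measure only the spread between these libraries. The script was tested on simulated data. TPM lacks depth, so no counting error can be given. The receptors were proposed as a set, and the gene lists written, with earlier results of these data known. All 10 receptors were named. From each list the text names the 2 largest rises and falls between the lines, the 2 smallest p-values for each compound and the highest ligand per line, and for each receptor its most similar gene. Alternatives were a pseudocount of 0.1, no filter, a mean of at least 10 TPM, quantile normalization, TPM rescaled without mitochondrially encoded genes, leaving out each library, and 1.5-fold.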

Additional observations from a re-analysis of the deposited data

Results flagged for a closer look

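In TPM as deposited, 5 receptors were lower with roseoflavin in both AsPC-1 pairs of libraries and higher in both PANC-1 pairs. The same held for 11.5% of all genes tested. The difference between the lines in this change (that of PANC-1 less that of AsPC-1, in log2(TPM + 1)) was 0.40 for INSR, 0.28 for AXL, 0.23 for FGFR2, 0.18 for ERBB3 and 0.11 for IGF1R. The limma interaction gave Benjamini-Hochberg adjusted p-values of 0.390, 0.552, 0.656, 0.521 and 0.650 in that order, so none passed. For AXL the difference was 0.14 without the AsPC-1 combination library and 0.42 without the AsPC-1 roseoflavin library. For FGFR2 it was 0.12 without the AsPC-1 roseoflavin library and 0.33 without that of the combination. ERBB3 and FGFR2 were below 1 TPM in PANC-1, where a small change in TPM makes up a large part of the level. In PANC-1 with roseoflavin alone, IGF1R, AXL and FGFR2 rose by only 0.0032, 0.0090 and 0.017. Directions that rest on rises of this size can depend on the scaling of TPM. Relative to the transcripts that are not mitochondrial, IGF1R and AXL were lower there with roseoflavin alone.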

How the results depend on the processing

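No paired analysis was possible because there was 1 library for each line and treatment and the labels carry no replicate number to pair by. The matched pairs in the text are set by line and compound, and line was a term of every fit. Counts of calls for trametinib, roseoflavin, their interaction and the combination were 0 under every alternative run. Of the counts recomputed, 107 values stayed within 1.5 times the main value and 24 did not. Restricted to genes averaging 10 TPM or more, the line difference had 8388 calls among 9368 genes, a smaller set, and leaving out each library gave 15618 to 15789. The interaction of line and trametinib had 4 calls with a pseudocount of 0.1, 2 without a filter and 2 with rescaled TPM, against 0. The interaction of line and roseoflavin had 8 with a pseudocount of 0.1 and 0 without a filter, with quantile normalization, with rescaled TPM and without any 1 library (0 to 0), against 5. For these counts the cause was not tested. Receptors past the fold in AsPC-1 numbered 1 instead of 0 for roseoflavin at a pseudocount of 0.1, 0 instead of 1 for the combination at 1.5-fold, 1 instead of 0 for trametinib on top of roseoflavin at a pseudocount of 0.1, with quantile normalization and with rescaled TPM, and 0 at 1.5-fold and 1 with quantile normalization instead of 2 for roseoflavin on top of trametinib. In PANC-1 the combination had 1 instead of 0 at a pseudocount of 0.1.

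For single receptors 457 values kept their direction and side of the threshold and 13 changed direction. FGFR1 between the lines was -0.40 with quantile normalization and -0.20 with rescaled TPM. With roseoflavin, ERBB3 was 0.020 at a pseudocount of 0.1 and IGF1R 0.00073 with quantile normalization. Leaving out each library moved trametinib changes from -0.049 to 0.013 for EGFR, from -0.038 to 0.0034 for MET, from -0.14 to 0.014 for AXL and from -0.042 to 0.10 for INSR, and roseoflavin changes from -0.0052 to 0.085 for EPHA2 and from -0.10 to 0.035 for INSR. None of these had passed a test. FGFR1, FGFR2 and INSR fall under a mean of 10 TPM and have no value there. Without replicates or read depth, changes of the size seen for the receptors cannot be told apart from culture or library variation.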
